A study of Mus musculus with 9 samples.

Results

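The genes described here are 33 interferon-induced genes of the mouse liver, taken by symbol from the 49585 gene rows of the series' count table. They form 7 groups by role: 4 transcription factors, 3 sensors of viral nucleic acid, 7 antiviral effectors, 7 genes of the ISG15 system and other induced genes, 5 guanylate binding proteins, 5 immunity-related GTPases and 2 chemokines. Of the 33 members, 31 had enough reads to be among the 11884 genes tested. The other two were Tgtp1, an immunity-related GTPase, with 20 reads over all libraries, and Cxcl10, a chemokine, with 45.

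All mice were male C57BL/6J animals aged 14 weeks, bought at 5 weeks of age, and RNA of the whole liver was sequenced after depletion of ribosomal RNA. The MG group spent about 35 days in the microgravity of the International Space Station. The AG group spent the same time there in cages spun at 77 rpm, so that they experienced 1 g of artificial gravity. Ground controls (GC) were kept at 1 g in Japan for 35 days in housing that copied the flight. Each flight group held 6 animals. The flight mice were bought from the Jackson Laboratory and the ground mice from Charles River Laboratories, so flight and supplier cannot be told apart in any comparison with GC. Flight mice were killed 2 days after splashdown. Each group had 3 libraries, and the labels do not name the animal behind each one, so p-values measure the spread between libraries, which may be technical in part.

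Interferons are secreted proteins that cells release on sensing a virus or another microbe. Type I interferons act through the receptor Ifnar1/Ifnar2 and a complex with Stat2 and Irf9 that binds the interferon-stimulated response element (ISRE). Interferon gamma, made mainly by T cells and natural killer cells, acts through Ifngr1/Ifngr2 and on gamma-activated sites (GAS) in promoters. Both produce proteins that block viral replication or attack intracellular microbes, and in the liver Kupffer cells, endothelium and hepatocytes all respond.

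Promoter sequences are shown for 7 members whose libraries or whose values in AG 1 the results turn on, because they carry the binding elements through which these genes are known to be induced. Each stretch of 90 bases lies within the window from 250 bases before to 50 after the RefSeq start (GRCm38.p6) and is printed 5′ to 3′ on the strand of the gene. Capitals mark matches to the ISRE letters GAAANNGAAA, on either strand, and to the GAS letters TTCNNNGAA, which read the same on both strands.
Isg15: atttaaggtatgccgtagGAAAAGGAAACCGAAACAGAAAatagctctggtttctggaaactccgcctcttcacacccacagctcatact
Ifit3: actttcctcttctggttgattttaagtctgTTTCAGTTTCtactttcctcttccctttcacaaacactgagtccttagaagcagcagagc
Bst2: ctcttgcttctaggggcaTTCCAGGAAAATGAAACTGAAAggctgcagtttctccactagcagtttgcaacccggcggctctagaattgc
Gbp2: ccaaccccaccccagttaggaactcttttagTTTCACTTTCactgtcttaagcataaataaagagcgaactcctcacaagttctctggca
Gbp7: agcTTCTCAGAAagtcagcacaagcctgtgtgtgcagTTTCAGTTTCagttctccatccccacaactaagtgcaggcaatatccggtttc
Igtp: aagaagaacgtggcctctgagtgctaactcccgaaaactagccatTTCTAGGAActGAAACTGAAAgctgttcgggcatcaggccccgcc
Irgm2: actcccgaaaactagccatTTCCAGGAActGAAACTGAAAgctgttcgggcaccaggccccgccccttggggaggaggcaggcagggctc

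These stretches lie at chr4:156200825-156200914 for Isg15 (minus strand), chr19:34583377-34583466 for Ifit3 (plus), chr8:71537537-71537626 for Bst2 (minus), chr3:142620573-142620662 for Gbp2 (plus), chr3:142530246-142530335 for Gbp7 (plus), chr11:58199466-58199555 for Igtp (plus) and chr11:58214883-58214972 for Irgm2 (plus). The promoter of Isg15 held 3 overlapping ISRE matches, the first starting 78 bases before the RefSeq start. In Bst2 a GAS match overlapped the first of 2 overlapping ISRE matches. Igtp and Irgm2, neighbours on chromosome 11, shared a stretch of 64 bases with 2 differing bases, in which a GAS match stood just before an ISRE match.

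RefSeq windows were matched to 25 of the 33 members, some with more than 1 start, which gave 29 windows. An ISRE match was present in 17 of them (58.6%), against 3.44% of 32851 RefSeq windows of the same length. A GAS match was present in 8 (27.6%), against 8.30% of all windows. Of the 25 matched members, 6 held both and 6 held neither, among them Irf7 and Cxcl9. A match describes these letters in these windows and not binding of a factor, and the members had been listed as interferon-induced in advance.

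The libraries held between 6194521 and 8957331 gene counts, at which 3 reads correspond to between 0.339 and 0.473 CPM, a level relative to the library total after TMM scaling. AG 1 stood apart from the other 8 libraries, at 36.75 on the first principal component (28.4% of the variance) and 35.66 on the second (22.0%). It also had the highest macrophage markers, although in whole liver more cells of a type and more RNA per cell cannot be told apart: 13 macrophage markers summed to 1492 CPM in AG 1, against 330 to 436 CPM in the other libraries, and 11 of the 13 were highest there. Marco, a scavenger receptor of macrophages, had 278 CPM in AG 1 and 2.46 to 5.98 CPM elsewhere, whereas Clec4f, which marks resident Kupffer cells, had 78.7 CPM in AG 1 and 66.8 to 91.1 CPM elsewhere. All 6 B cell markers were highest in AG 1, at a sum of 32.3 CPM against 1.72 to 12.6 CPM. Sums of neutrophil markers (14.2 CPM against at most 2.99 CPM), of T cell and natural killer cell markers (9.76 CPM against at most 6.77 CPM) and of sinusoidal endothelial markers (475 CPM against at most 419 CPM) were highest in AG 1 too. Skeletal muscle markers summed to 409 CPM in MG 2, 81.9 CPM in AG 1, 200 CPM in GC 1 and 589 CPM in GC 2, and to at most 14.9 CPM in the other 5 libraries. Hepatocyte markers were abundant in every library, at 87782 CPM or more in sum. Comparisons of the members are given with and without AG 1, and the part of these markers in them was not tested.

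Levels of the members spanned a wide range. Per length, measured as RPKM (reads scaled to exon length and library size) and averaged over the 9 libraries, Bst2 was the highest member at 57.5 RPKM and Ifi44 the lowest at 0.129 RPKM. Bst2 encodes tetherin, which holds budding virus particles at the cell surface. The GTPase Iigp1, which attacks the vacuoles of intracellular parasites, followed at 40.3 RPKM, with 28.8 to 61.8 RPKM among libraries, within the 38.7 to 77.8 RPKM of Bst2. Ifi27, which encodes a small hydrophobic protein, came next at 15.4 RPKM. Below them came Igtp at 7.55, Stat2 at 6.55, Irgm2 at 5.86, Irf7 at 4.09 and Irgm1 at 4.05 RPKM. Neighbours among these 5 had overlapping ranges, but those of Stat2 (5.39 to 7.47 RPKM) and Irgm1 (3.42 to 4.71 RPKM) did not overlap. RPKM includes multiply mapped reads, and only 22.0% of the reads in Igtp exons were uniquely placed. By the counts tested, Igtp had 3.44 CPM per kilobase of exon, 14th of the 33, and Stat2 had 13.3. Most antiviral effectors of the Ifit and Oas families lay far lower, so that Ifit1 ranked 19th and Oas1a 27th of the 33.

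**Figure D1:**
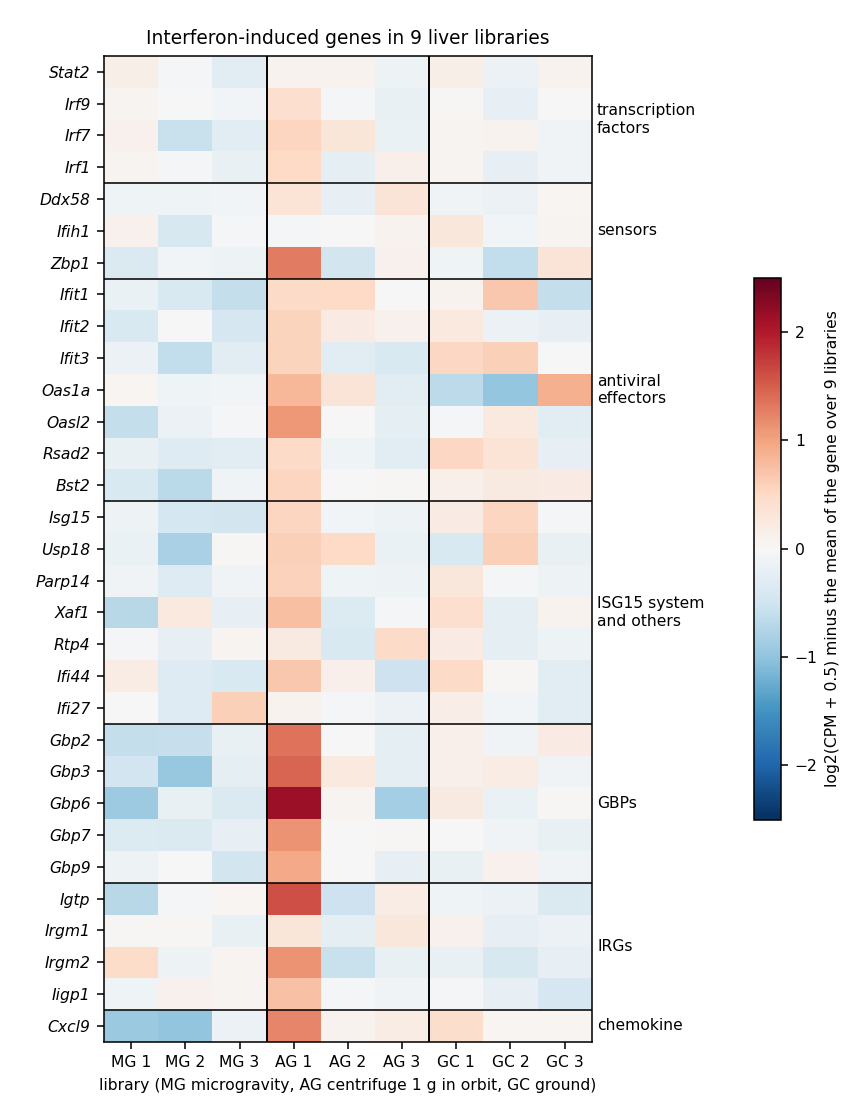
Colour gives, for each of the 31 tested members (rows, grouped by role) and each of the 9 libraries (columns), log2(CPM + 0.5) minus the mean of that gene over the 9 libraries. AG 1 is the highest library for 22 of the 31 genes, and Gbp6, Igtp, Gbp3, Gbp2, Zbp1 and Cxcl9 are the darkest there. GBPs are guanylate binding proteins and IRGs immunity-related GTPases.

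Microgravity was first set against the ground (MG vs GC). No member passed the test: 0 of 31 had an adjusted p below 0.05 (edgeR's quasi-likelihood test, Benjamini-Hochberg over all genes), while 165 of all 11884 genes did (1.39%), 65 higher (0.547%) and 100 lower (0.841%). At an unadjusted p below 0.05 there were 3 members, against 13.9% of all genes, and neither DESeq2 nor limma-voom called any. Even so, 25 of the 31 members had a log2 fold change below 0, with a median of -0.22 against 0.01 over all genes tested, of which 51.2% were above 0. Leaving out AG 1, which enters here only through the scaling, the filter and the estimate of the spread, left 25 below 0 and 6 above, against 50.6% of all genes above 0, and a median of -0.22. Then 0 members were called, against 2.4% of all genes, and 8 had an unadjusted p below 0.05, against 16.4%.

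The member with the smallest p was Bst2. It had 79.8, 65.1 and 97.6 CPM in the MG livers, 151, 103 and 106 CPM in the AG livers and 114, 121 and 119 CPM in the GC livers. Every MG library lay below every other library. Its log2 fold change in MG vs GC was -0.55 ± 0.17 (SE), with an adjusted p of 0.165 by edgeR, and of 0.0584 without AG 1.

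Cxcl9, a chemokine that draws T cells and is induced chiefly by interferon gamma, came next. It had 3.39, 3.27 and 6.21 CPM in the MG livers, 16.9, 7.46 and 7.97 CPM in the AG livers and 9.62, 7.25 and 7.20 CPM in the GC livers. The MG libraries again lay below all others, with AG 1 far above the rest. Its log2 fold change in MG vs GC was -0.92 ± 0.36 (edgeR adjusted p = 0.282; 0.102 without AG 1).

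Ifit3, which binds and helps block viral RNA together with Ifit1, had 3.17, 2.14 and 2.91 CPM in the MG livers, 5.49, 2.86 and 2.60 CPM in the AG livers and 5.28, 5.67 and 3.60 CPM in the GC livers. MG and GC libraries did not overlap, while the AG libraries spanned the gap between them. The log2 fold change in MG vs GC was -0.82 ± 0.34 (edgeR adjusted p = 0.304). Only 54.6% of the reads in Ifit3 exons were uniquely placed, so its level is uncertain. Isg15, the ubiquitin-like protein that is attached to other proteins after infection, was chosen after its values were seen. It had 2.60, 2.01 and 1.98 CPM in the MG livers, 4.42, 2.74 and 2.60 CPM in the AG livers and 3.40, 4.41 and 2.85 CPM in the GC livers, a log2 fold change of -0.68 ± 0.31 in MG vs GC (edgeR adjusted p = 0.360).

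By role, the values below 0 in MG vs GC were found in every member of 3 groups: the 3 sensors (median -0.11), the 7 antiviral effectors (median -0.55) and the 5 guanylate binding proteins (median -0.59). Among these effectors Oas1a lay at about 0 (-0.02 ± 0.63). So did the sensor Ddx58 (-0.04 ± 0.15), and the sensor Zbp1 was well within its SE (-0.11 ± 0.44). Rsad2, which encodes viperin, an enzyme that makes a terminator of viral RNA synthesis, had a log2 fold change of -0.56 ± 0.27. The guanylate binding proteins, GTPases that coat and break open pathogen vacuoles, ranged from -0.68 for Gbp3 to -0.14 for Gbp9. Among the 7 genes of the ISG15 system and others, 6 were below 0 (median -0.35). Without the muscle-rich libraries MG 2, GC 1 and GC 2 that count was 2 of 7 (median 0.13). The medians of the sensors, antiviral effectors and guanylate binding proteins were then -0.15, -0.24 and -0.33, and Ifit1 was above 0, at 0.26. The transcription factors were divided, 2 above and 2 below 0 (median -0.03). By reads in introns, 4 of the 5 tested genes of the ISG15 system and others were above 0 in MG vs GC (median 0.16). The intron medians of the sensors and the guanylate binding proteins were -0.20 and -0.39, over 3 tested genes each.

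Of the 4 tested immunity-related GTPases 3 were above 0, with a median of 0.13. Irgm1 (0.02 ± 0.15) and Igtp (-0.0018 ± 0.49) lay at about 0, and Iigp1 had 0.23 ± 0.20. By reads in introns 2 of the 4 were above 0, with a median of -0.18. Irgm2, a regulator of the other GTPases of this family, had the highest fold change of any member in MG vs GC and was chosen after its values were seen. It had 56.5, 37.3 and 43.1 CPM in the MG livers, 89.3, 27.9 and 36.2 CPM in the AG livers and 36.2, 30.9 and 35.7 CPM in the GC livers. All MG libraries lay above all GC libraries, and AG 2 was the lowest of the 9. In MG vs GC its log2 fold change was 0.41 ± 0.35 (edgeR adjusted p = 0.673) and 0.41 ± 0.16 without AG 1 (edgeR adjusted p = 0.238).

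In all, 8 members had every MG library below every GC library, against 11.3% of all genes tested: Ifit3, Bst2, Isg15, Gbp2, Gbp3, Gbp6, Gbp7 and Cxcl9. Irgm2 was the 1 member with every MG library above, against 11.9% of all genes. In the same comparison the 13 macrophage markers summed to between 330 and 386 CPM in the MG livers and between 389 and 431 CPM in the GC livers, and 11 of the 13 had log2 fold changes below 0 (median -0.17, none called by edgeR, 0 at an unadjusted p below 0.05). Leaving out those 3 muscle-rich libraries, which leaves 1 GC library assumed to vary like the other groups, gave a median over the members of -0.07, with 12 of 32 above 0, and turned the sign of 8 of the 31. The log2 fold changes were then -0.44 ± 0.26 for Bst2, -0.61 ± 0.58 for Cxcl9 and -0.25 ± 0.56 for Ifit3.

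**Figure D2:**
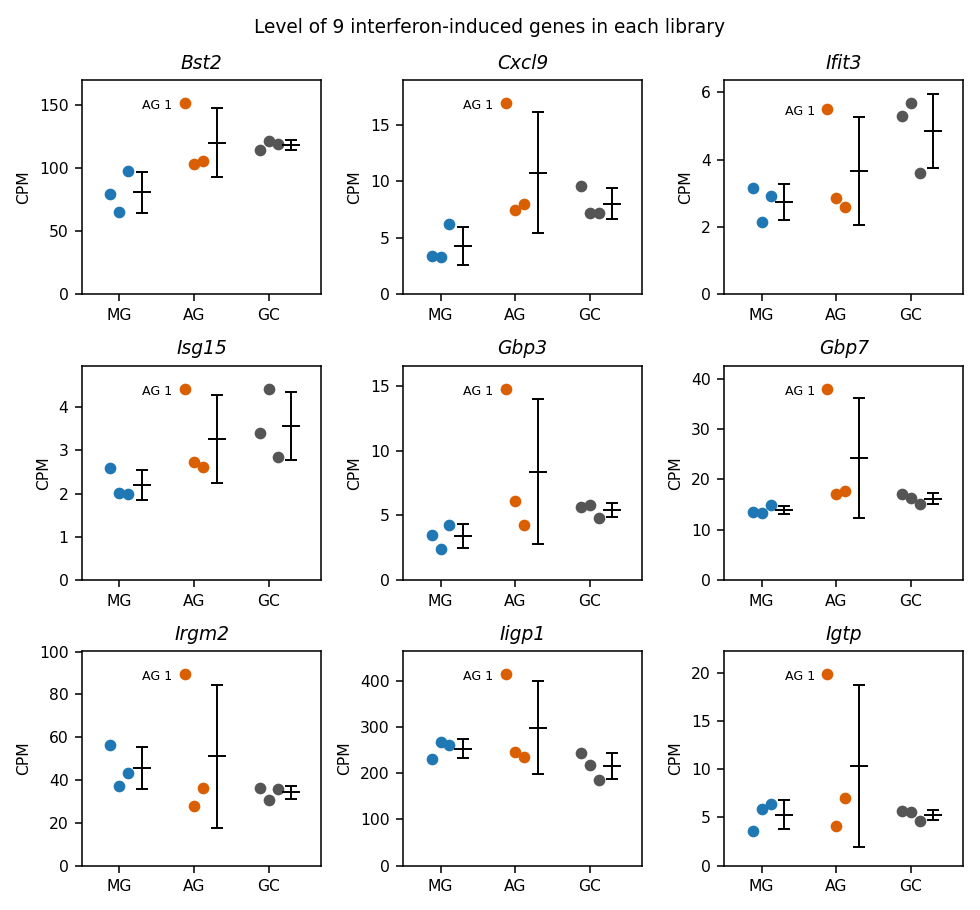
Each panel gives the CPM of 1 gene in each library, in the order MG, AG and GC, with the mean and SD of the 3 libraries of a group to the right of its points. In Bst2, Cxcl9, Isg15, Gbp3 and Gbp7 all MG points lie below all others. Near ties are MG 1 and AG 3 in Isg15, MG 3 and AG 3 in Gbp3, and MG 3 and GC 3 in Gbp7. AG 1 is the highest point in every panel except Ifit3.

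The comparison of AG with GC sets 1 g in orbit against 1 g on the ground. No member passed the test, and no gene of the whole table did (0 of 11884, 0% called by edgeR, 118 by DESeq2, 0 by limma-voom). At an unadjusted p below 0.05 there was 1 member, against 10.1% of all genes, and neither DESeq2 nor limma-voom called a member. The members' median log2 fold change was 0.24, with 26 of 31 above 0, against 0.01 and 51.8% over all genes. Without AG 1 the median was -0.06 and 12 of 31 were above 0, against 50.3% of all genes. Then 0 members were called (0.00826% of all genes), and 1 had an unadjusted p below 0.05 (8.41% of all genes).

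AG 1 was the highest of the 9 libraries for 22 of the 31 tested members, against 19% of all genes tested. For 30 of the 31, its level lay above the gene's own mean, by a median of 0.57 on the log2 scale. In the other libraries this median lay between -0.20 (MG 2) and 0.13 (GC 1). AG 1 exceeded the mean of the other 8 libraries 6.19 times for Gbp6, 3.70 times for Igtp, 3.22 times for Gbp3, 3.06 times for Gbp2 and 2.88 times for Zbp1, a sensor of left-handed nucleic acid that can start cell death. Over the 7 antiviral effectors this ratio ran from 1.42 for Ifit1 to 2.55 for Oasl2, and it was 1.57 for Isg15 and 1.51 for Irf7, the factor that amplifies interferon production. Ratios varied within roles: among the tested immunity-related GTPases, Irgm1 was at 1.27, Iigp1 at 1.75 and Irgm2 at 2.35 times, and beside Zbp1 the RNA sensor Ifih1 was at 0.97 times. Stat2 was at 1.07 times.

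The 5 guanylate binding proteins summed to 84.0, 33.3 and 29.4 CPM in the AG livers, against 33.3, 31.7 and 30.5 CPM in the GC livers. AG 2 and AG 3 thus lay among or close to the GC values, and AG 1 alone far above them. The 5 immunity-related GTPases summed to 583, 318 and 335 CPM in the AG livers, against 337, 296 and 269 CPM in the GC livers. Iigp1 alone gave 413, 246 and 234 CPM of these sums in the AG livers and 243, 217 and 185 CPM in the GC livers. The 13 macrophage markers, at 1492, 436 and 412 CPM in the AG livers against 403, 431 and 389 CPM in the GC livers, were likewise highest in AG 1. Their part in the members' values was not tested.

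**Figure D3:**
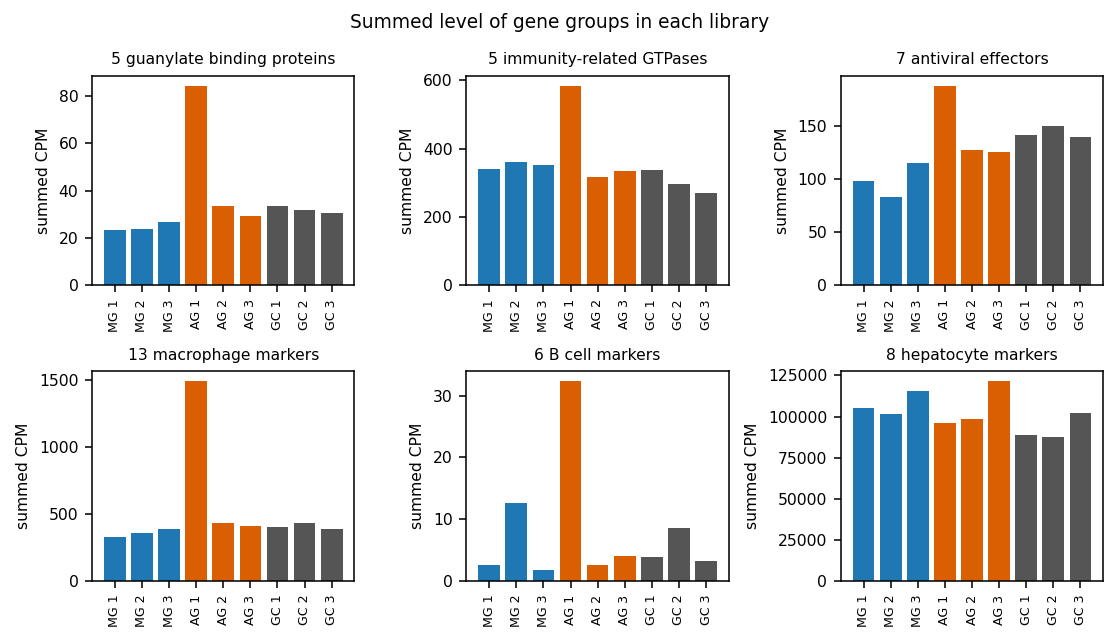
Bars give the summed CPM of 6 gene groups in each library, in the order MG, AG and GC, each axis starting at 0. AG 1 stands above the other 8 libraries for the guanylate binding proteins (84.0 CPM), the immunity-related GTPases (583 CPM) and the antiviral effectors (188 CPM). The same holds for the macrophage markers (1492 CPM) and the B cell markers (32.3 CPM), but not for the hepatocyte markers. In AG 1, Iigp1 gives 413 CPM of the immunity-related GTPase sum and Bst2 151 CPM of the effector sum. AG 1 is the highest library for 3 of the 7 antiviral effectors, all 5 guanylate binding proteins and all 5 immunity-related GTPases.

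The 3 members with the smallest p in AG vs GC were Iigp1, Gbp7 and Igtp. Iigp1 had 413, 246 and 234 CPM in the AG livers and 230, 268 and 260 CPM in the MG livers, against 243, 217 and 185 CPM in the GC livers. The AG and GC libraries overlapped, AG 3 lying below GC 1. In AG vs GC the log2 fold change was 0.47 ± 0.20 (edgeR adjusted p = 0.489) and 0.15 ± 0.12 without AG 1.

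Gbp7 had 38.0, 17.2 and 17.6 CPM in the AG livers and 13.5, 13.3 and 14.9 CPM in the MG livers, against 17.1, 16.2 and 15.0 CPM in the GC livers. It was the 1 member with every AG library above every GC library, against 7.21% of all genes, although AG 2 exceeded GC 1 by little. No member had every AG library below every GC library, against 7.17% of all genes. The MG libraries lay below all others, so that no 2 groups overlapped and GC stood between AG and MG. However, MG 3 (14.92 CPM, 113 reads) and GC 3 (15.01 CPM, 100 reads) were nearly tied. The log2 fold change in AG vs GC was 0.58 ± 0.27 (edgeR adjusted p = 0.496) and 0.10 ± 0.13 without AG 1.

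Igtp had 19.8, 4.10 and 7.05 CPM in the AG livers, against 5.63, 5.51 and 4.65 CPM in the GC livers. AG 2 was below every GC library and AG 1 above every other library of the series. It had a log2 fold change of 0.95 ± 0.48 (edgeR adjusted p = 0.525) and 0.06 ± 0.31 without AG 1. Igtp and Irgm2 share 162 exon bases on the same strand. Only 22.0% of the reads in Igtp exons were uniquely placed, against 98.6% of those in Irgm2 exons, so the level of Igtp is uncertain. Where else the reads of Igtp map was not tested.

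Without AG 1 the sign of the log2 fold change in AG vs GC turned for 14 of the 31 members. For Gbp6 the log2 fold change was 1.08 ± 0.69 with AG 1 and -0.42 ± 0.44 without it, and only 4.86% of the reads in Gbp6 exons were uniquely placed. Among the others were Gbp2 (0.51 with AG 1, -0.22 without), Gbp3 (0.62 and -0.06), Gbp9 (0.45 and -0.05), Zbp1 (0.62 and -0.09), Oasl2 (0.47 and -0.11), Irgm2 (0.57 and -0.11) and Cxcl9 (0.41 and -0.07). The remaining 6, with values between 0.02 and 0.14 with AG 1, were Irf9, Bst2, Parp14, Xaf1, Ifi44 and Ifi27. With AG 2 and AG 3 as the AG group, Ifit3, Bst2 and Isg15 had every AG library below every GC library. These were 3 of the 31 members, against 12.4% of all genes. Gbp7 was the 1 member with AG 2 and AG 3 above every GC library, against 12.3% of all genes.

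The comparison of MG with AG sets microgravity against 1 g among mice of the same flight and supplier. EdgeR's quasi-likelihood test called 0 members and 0 of all 11884 genes (0%), against 97 genes by DESeq2 and 2 by limma-voom. At an unadjusted p below 0.05 there were 9 members, against 9.8% of all genes. Of the 31 tested members 30 had log2 fold changes below 0, with a median of -0.47 against 0.00 over all genes, of which 50.1% were above 0. Without AG 1 edgeR called 0 members, against 0.0578% of all genes. The other counts were then 4 members at an unadjusted p below 0.05 (7.79% of all genes), 25 below 0 and 6 above, against 51.6% of all genes above 0, and a median of -0.13.

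The smallest p values were those of Cxcl9, Bst2 and Gbp3. Cxcl9, at the levels given above, had a log2 fold change of -1.33 ± 0.36 (edgeR adjusted p = 0.298). It was the 1 member that DESeq2 called (adjusted p = 0.0476), and limma-voom called none. Without AG 1 its log2 fold change was -0.85 ± 0.28 (edgeR adjusted p = 0.496), and the MG libraries still lay below AG 2 and AG 3. Bst2 had -0.57 ± 0.17 (edgeR adjusted p = 0.357) and -0.37 ± 0.14 without AG 1.

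Gbp3 had 3.50, 2.39 and 4.23 CPM in the MG livers, against 14.8, 6.09 and 4.29 CPM in the AG livers and 5.63, 5.83 and 4.80 CPM in the GC livers. MG 3 and AG 3 were nearly level, and AG 1 lay far above the rest. The log2 fold change in MG vs AG was -1.31 ± 0.41 (edgeR adjusted p = 0.373) and -0.63 ± 0.28 without AG 1.

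With all libraries, 7 members had every MG library below every AG library, against 5.96% of all genes: Ifit1, Ifit2, Bst2, Isg15, Gbp3, Gbp7 and Cxcl9. For Isg15, MG 1 (2.600 CPM, 23 reads) and AG 3 (2.605 CPM, 17 reads) were nearly tied. None had every MG library above, against 6.4% of all genes. Without AG 1 the same 7 were below, against 11% of all genes. Irgm2 then had every MG library above AG 2 and AG 3, against 10.7% of all genes, and its log2 fold change was -0.16 ± 0.35 with AG 1 and 0.52 ± 0.18 without it. This comparison and that with GC share the MG libraries, so their values for a gene are not independent. The macrophage markers were lower in MG here too, at 330 to 386 CPM against 412 and 436 CPM in AG 3 and AG 2. All 13 had log2 fold changes below 0 without AG 1 (median -0.26, none called by edgeR). EdgeR then had 5 of them at an unadjusted p below 0.05, against 7.79% of all genes.

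**Figure D4:**
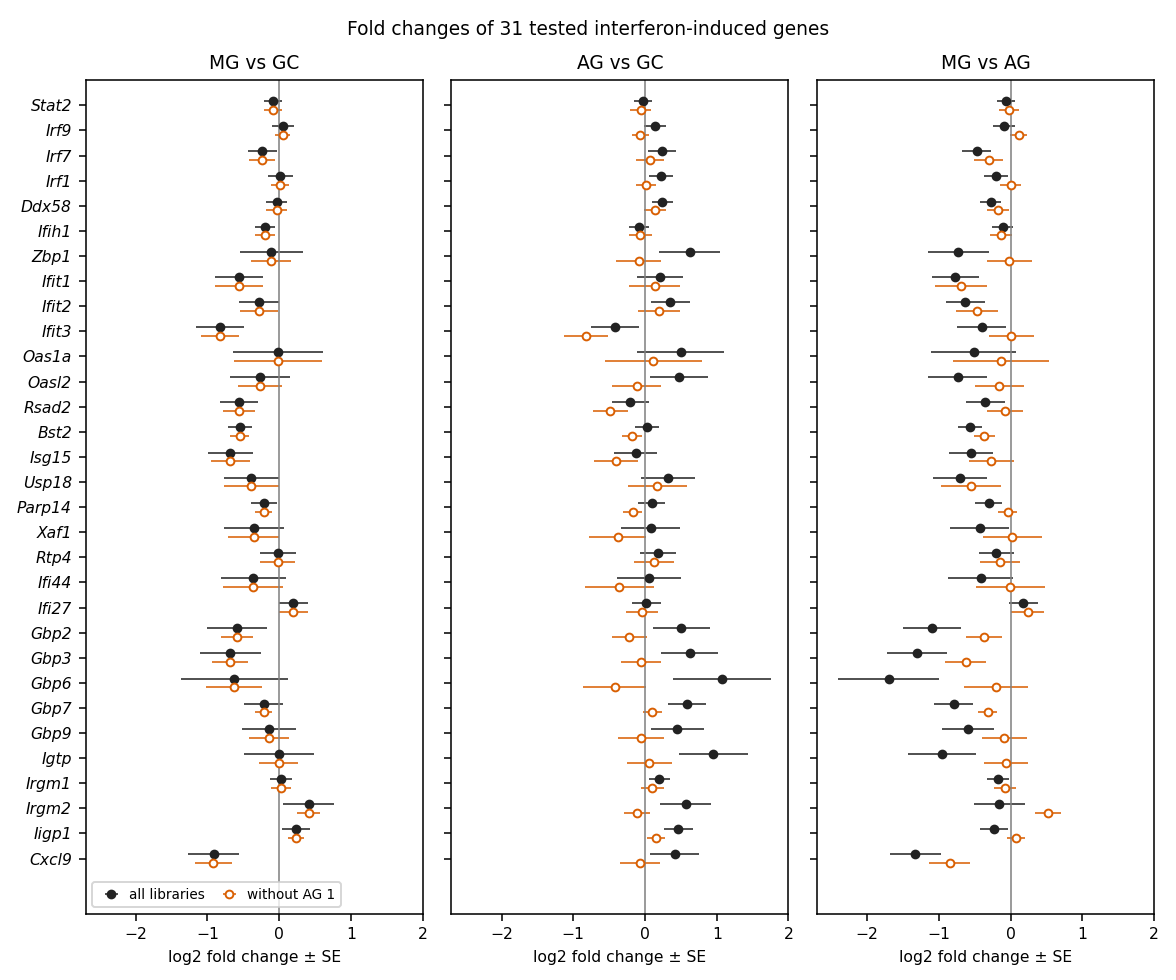
Points give the log2 fold change and bars its SE for each of the 31 tested members in MG vs GC, AG vs GC and MG vs AG, filled with all libraries and open without AG 1. In MG vs GC the pairs coincide and 25 of 31 lie below 0. In AG vs GC the 5 guanylate binding proteins lie above 0 with AG 1, and without it all but Gbp7 (0.10) lie below 0.

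The members that stand for their role group by level, beside those above, had overlapping groups in every comparison. Stat2, part of the complex that binds the ISRE, had 64.2, 57.1 and 48.5 CPM in the MG livers, 61.9, 61.9 and 53.3 CPM in the AG livers and 64.9, 52.9 and 62.1 CPM in the GC livers. Ifih1, the sensor of long double-stranded RNA, had 38.6, 26.9 and 34.5 CPM in the MG livers, 34.8, 35.6 and 37.8 CPM in the AG livers and 43.5, 33.7 and 37.4 CPM in the GC livers. Ifi27 had 45.9, 36.3 and 68.5 CPM in the MG livers, 48.0, 44.4 and 40.9 CPM in the AG livers and 50.7, 43.5 and 37.1 CPM in the GC livers. MG 3 was the highest library for Ifi27, and no library stood apart for the other two. Log2 fold changes in MG vs GC were -0.08 ± 0.13 for Stat2, -0.20 ± 0.14 for Ifih1 and 0.20 ± 0.20 for Ifi27. A change within about 2 of these standard errors was not detectable here, and larger ones could be missed too. Bst2, at -0.55 ± 0.17 in MG vs GC, did not pass the test either (edgeR adjusted p = 0.165).

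The other members fell into abundant and scarce ones. Among the abundant ones, the factor Irf9 ranged over the libraries from 27.6 to 42.7 CPM, the factor Irf1 from 25.6 to 42.5 CPM, the RNA sensor Ddx58 (RIG-I) from 21.1 to 31.3 CPM, the ADP-ribosyltransferase Parp14 from 44.2 to 81.9 CPM and the GTPase Irgm1 from 40.4 to 59.0 CPM. AG 1 was the highest library for all 5, and their log2 fold changes in MG vs GC lay between -0.21 ± 0.19 for Parp14 and 0.05 ± 0.15 for Irf9. Irf7 had 26.7, 16.7 and 20.2 CPM in the MG livers, 36.0, 30.6 and 21.9 CPM in the AG livers and 25.8, 26.2 and 23.1 CPM in the GC livers, with overlap between all groups. Its log2 fold change in MG vs AG was -0.47 ± 0.20 (edgeR adjusted p = 0.482).

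Usp18, the protease that removes Isg15 from proteins, and Xaf1, Rtp4, Ifi44, Oas1a, Oasl2 and Gbp9 stayed below 10 CPM in every library. Oas1a lay lowest of these by mean, at 0.473 to 3.00 CPM, and Rtp4 highest, at 4.97 to 9.35 CPM. Cxcl10, a chemokine like Cxcl9, reached 1.37 CPM and Tgtp1 1.22 CPM, both in AG 1, and neither exceeded 0.995 CPM in another library. Of the reads in Tgtp1 exons 3.50% were uniquely placed, so near-identical genes may share its reads. In Cxcl10 exons 44.9% were, so its level is uncertain too. Art3, on the opposite strand, overlaps 133 exon bases of Cxcl10, and its part in this was not tested.

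The remaining pathway was read from lists of genes that are not members. Of 10 interferon genes, 9 had no read in any library, and interferon gamma (Ifng) had 1 read, in MG 1. A count of 0 in a library allows a level of up to 0.339 to 0.473 CPM, depending on the library. All 3 comparisons called 0 of 5 tested interferon receptors, 0 of 10 receptor kinases, STATs and feedback inhibitors and 0 of 15 sensors, adaptors and kinases by edgeR and limma-voom. DESeq2 called 1 of these sensors, adaptors and kinases in MG vs GC. At an unadjusted p below 0.05, edgeR had 1, 1 and 3 of them in MG vs GC, 0, 1 and 1 in AG vs GC, and 1, 2 and 3 in MG vs AG.

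By smallest p in MG vs GC, the receptor genes were Ifnar2, the second chain of the type I receptor (log2 fold change 0.28 ± 0.10, edgeR adjusted p = 0.218), and Ifngr2 of the gamma receptor (0.19 ± 0.17). Among the kinases they were Tyk2 (0.35 ± 0.15) and Jak2 (0.26 ± 0.14), which phosphorylate the receptors. Among the sensors they were the ubiquitin ligase Trim25 (0.45 ± 0.13, edgeR adjusted p = 0.128) and the kinase Tbk1 (0.42 ± 0.12), which activates Irf3. All of these values were above 0, and none passed the test. Over the whole lists, 3 of 5 receptors (median 0.08), 8 of 10 kinases, STATs and inhibitors (median 0.20) and 4 of 15 sensors, adaptors and kinases (median -0.07) were above 0 in MG vs GC.

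Of 44 further tested interferon-stimulated genes, 1 fell in MG vs GC, and none passed the test in AG vs GC or MG vs AG by edgeR. The medians over this list were -0.14 in MG vs GC, 0.19 in AG vs GC and -0.39 in MG vs AG, and -0.12, -0.06 and -0.06 without AG 1. At an unadjusted p below 0.05 edgeR had 6, 2 and 14 of them, against 13.9%, 10.1% and 9.8% of all genes. Without AG 1 it had 11, 2 and 3 of 45, against 16.4%, 8.41% and 7.79% of all genes. With all libraries DESeq2 called 2, 0 and 1, and limma-voom 1, 0 and 0. The gene that fell was Ly6e, a surface protein that affects the entry of viruses. It had 65.5, 54.1 and 63.4 CPM in the MG livers, 119, 89.5 and 86.3 CPM in the AG livers and 107, 124 and 87.5 CPM in the GC livers, with every MG library below every other. Its log2 fold change in MG vs GC was -0.80 ± 0.16 (edgeR adjusted p = 0.0370; 0.0126 without AG 1).

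The call of Ly6e rested on nearly the full set of libraries. Its adjusted p by edgeR was 0.107 when GC 1 was left out, 0.155 when GC 2 was, 0.0734 for MG 1, 0.168 for MG 2, 0.102 for MG 3 and 0.0504 for AG 2. Without the muscle-rich libraries its log2 fold change was -0.45 ± 0.23. Ifitm3, which keeps viruses from fusing with endosomes, was second in this list, with 141, 133 and 128 CPM in the MG livers, 169, 138 and 141 CPM in the AG livers and 194, 191 and 158 CPM in the GC livers. Its log2 fold change in MG vs GC was -0.43 ± 0.11 (edgeR adjusted p = 0.103).

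Reads in introns, which come from unspliced RNA, gave a separate measure. Enough were present to test 18 of the 33 members, of which 0 were called in any comparison by edgeR, against 52 of 11662 genes (0.446%) in MG vs GC, 0 (0%) in AG vs GC and 2 (0.0171%) in MG vs AG. At an unadjusted p below 0.05 there were 1, 2 and 4 members, against 10.4%, 7.8% and 9.41% of all genes, and no other tool was run on introns. Bst2 again had the smallest p in MG vs GC, with intron levels of 2.79, 2.51 and 2.54 CPM in the MG livers, 4.71, 3.81 and 2.95 CPM in the AG livers and 3.70, 4.38 and 4.09 CPM in the GC livers. All MG libraries lay below all others. Its intron reads had a log2 fold change of -0.61 ± 0.25, beside -0.55 ± 0.17 for its exon reads, with an edgeR adjusted p of 0.415.

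Over the 18 members the median log2 fold change of intron reads was -0.11 in MG vs GC, 0.02 in AG vs GC and -0.18 in MG vs AG. Without AG 1, 21 members could be tested on introns, with medians of -0.12, -0.10 and 0.04, so the signs in AG vs GC and MG vs AG turned. Then 0 were called, against 1.06%, 0% and 0.00851% of all genes, and 1, 2 and 1 had an unadjusted p below 0.05, against 11.8%, 5.79% and 6.41%. AG 1 was the highest library by intron reads for 7 of the 18, against 16.4% of the genes tested on introns. Irgm2 was among them, with 7.09, 5.62 and 5.81 intron CPM in the MG livers, 12.8, 3.55 and 4.92 intron CPM in the AG livers and 5.21, 5.99 and 7.21 intron CPM in the GC livers. Among these 18 members the share of a gene's reads that fell in introns ranged widely, from 2.79% for Bst2 to 84.3% for Rtp4. Rtp4 is a chaperone for surface receptors and shares exon bases with a noncoding transcript.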

How the data were processed

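The authors deposited 1 table of whole-number counts per gene for 9 liver libraries, on the builds GRCm38 and mm10 per the submitters' processing notes. Not given in the sources used here are the aligner, the counter and whether strand was used. In every gene the deposited counts lay between the unique and the total exon reads. RPKM values deposited by the authors were proportional to total exon reads per exon length, so multiply mapped reads enter them. Per-library values in 81 further columns were left aside.

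Counts were filtered with filterByExpr by group (11884 genes), scaled by TMM and fitted with 1 mean per group over all 9 libraries by edgeR's quasi-likelihood model, with 6 residual degrees of freedom. Genes were called at a Benjamini-Hochberg adjusted p below 0.05. The biological coefficient of variation was 16.7% (14.4% without AG 1). Intron counts were fitted likewise. The floor of 3 reads covers counting error only, since reads are not independent molecules. The procedure was tested on simulated data.

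Members and lists were chosen with earlier results of these data known. Values in every library are given for members called in any comparison with all libraries or without AG 1, for the 3 members with the smallest p in each comparison and for the highest member per length in each role. Of each pathway list, called genes are named, beside the 2 genes whose p was smallest in MG vs GC. Any other gene is said to be chosen after its values were seen, or is an example of its role.

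Alternatives were limma-voom, DESeq2, robust edgeR fits, other scalings and filters, a replicate block, fits of 2 groups, unique or total exon reads and the removal of each library. Leaving out the 3 muscle-rich libraries was chosen after seeing the data. Promoters are from RefSeq (GRCm38.p6). Software was Python 3.11.15 with matplotlib 3.10.9 and pandas 2.3.3, and R 4.3.3 with DESeq2 1.42.0, limma 3.58.1 and edgeR 4.0.16.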

Additional observations from a re-analysis of the deposited data

How the results depend on the processing

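The count of called members was 0 in each comparison under every alternative run, except that DESeq2 called 1 in MG vs AG (Cxcl9, log2 fold change -1.33). The members' median log2 fold change in MG vs GC lay between -0.30 and -0.13 when single libraries were left out. In AG vs GC it lay between -0.062 and 0.39, and in MG vs AG between -0.66 and -0.13, the values nearest 0 being those without AG 1. The number of all genes called in MG vs GC was 278 without a filter, 390 by DESeq2, 375 in a fit of the 2 groups and 0 without the 3 muscle-rich libraries. With 1 library removed it ranged from 21 (GC 2) to 290 (AG 1), with 28 for MG 2, 51 for GC 3, 52 for GC 1, 63 for MG 3, 108 for MG 1 and 273 for AG 3. In AG vs GC it was 44 without a filter, 118 by DESeq2, 4 in a fit of the 2 groups and 0 to 60 with single libraries left out, the highest without AG 3. In MG vs AG it was 38 without a filter, 97 by DESeq2, 2 by limma-voom, 8 with edgeR's robust setting, 1 in a fit of the 2 groups and 0 to 130 with single libraries left out, the highest again without AG 3. The cause of these differences was not tested.

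Without AG 1 the sign turned for 0 of 31 members in MG vs GC, 14 in AG vs GC and 5 in MG vs AG, and without the muscle-rich libraries for 8, 4 and 1. With single libraries left out, log2 fold changes in AG vs GC lay between -0.22 and 0.79 for Gbp2, -0.058 and 0.93 for Gbp3, -0.42 and 1.55 for Gbp6, -0.11 and 0.87 for Irgm2, -0.090 and 0.97 for Zbp1 and -0.070 and 0.63 for Cxcl9. In MG vs AG they lay between -0.46 and 0.52 for Irgm2 and between -0.39 and 0.078 for Iigp1. Irgm2 in MG vs AG was 0.024 by limma-voom. Without the muscle-rich libraries log2 fold changes in MG vs GC were 0.26 for Ifit1, 0.25 for Ifi44, 0.15 for Rtp4, 0.13 for Usp18, 0.077 for Igtp, 0.033 for Parp14, 0.013 for Irf7 and -0.010 for Irf9. In AG vs GC they were -0.63 for Oas1a, 0.18 for Isg15, 0.30 for Rsad2 and 0.0080 for Ifit3, and in MG vs AG 0.016 for Ifih1. Other scalings moved the median of all genes by at most 0.0205 (log2).

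Libraries with the same number were not paired by the labels, and the correlations of their deviations from the group means ran from -0.28 to 0.48, with 5 of 9 over 0.1. With a replicate block 0 members were called in each comparison, and 1 gene of the whole table in MG vs AG. With 3 libraries a group, members at a few CPM rest on few reads, and small changes in them were not detectable.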
